A study of Caenorhabditis elegans with 12 samples.

Results

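The autosomal centres of *Caenorhabditis elegans* are the gene-rich middle stretches of chromosomes I to V, flanked on each side by an arm. They were taken as the 200 kb windows whose midpoint lay between set boundaries, which were 4 to 11 Mb for I, 5 to 12 Mb for II, 4 to 10 Mb for III, 4 to 13 Mb for IV and 6 to 17 Mb for V. This gave 200 of the 504 windows of the deposited count table, with 35 windows each on I and II, 30 on III, 45 on IV and 55 on V. The autosomal arms held 215 windows. Positions are those of the authors' windows, in a genome build not given in the sources used here.

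LEM-2 is a protein of the inner nuclear membrane, and chromatin immunoprecipitated with it marks the DNA that lies close to the nuclear periphery. In worms the chromosome arms carry most of the methylation of histone H3 lysine 9, while the centres hold most of the broadly expressed genes and are usually found away from the envelope. MET-2 and SET-25 are the methyltransferases that place this mark in embryos, while CEC-4, a chromodomain protein at the envelope, binds the methylated histone and anchors chromatin to the periphery.

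LEM-2 occupancy was compared between early embryos of wild-type worms (strain GW1), worms deleted for both met-2 and set-25 (GW638, met-2 set-25, called the double mutant) and worms deleted for cec-4 (GW828). All strains were fed bacteria in liquid culture at 20 °C, and their embryos were fixed in 2.16% formaldehyde for 30 min. Each genotype had 2 LEM-2 libraries, made with the same antibody, and 2 input libraries of chromatin without immunoprecipitation, from independent biological replicates, so that 12 libraries formed 6 groups. The labels describe deletion mutants without naming alleles, and each genotype is represented by 1 strain, so a difference between genotypes and one between strains cannot be told apart.

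The libraries held between 10750212 and 12340446 counts, and the median centre window held between 15680 and 25528.5 counts, for which counting error alone was 0.626% to 0.799% if each count was an independent fragment. The centres took up 40.8% to 41.4% of the input counts in every genotype. They took up 30.1% and 31.3% of the LEM-2 counts in the wild-type replicates, 37.1% and 36.2% in the double mutant, and 38.2% and 37.6% in cec-4. Replicates differed by more than counting error, with a chi-square per degree of freedom over the centre windows of 1.9 to 3.96 for the inputs, 12.6 for LEM-2 in wild-type, 15.3 in the double mutant and 54.2 in cec-4. The cec-4 pair stood apart in one way: the windows of replicate 2 deviated from their centre mean 1.44 times as far as those of replicate 1 (regression slope over 200 windows), in the same order (Pearson r = 0.982). Values of cec-4 are therefore given for each library wherever the size of peaks and valleys matters. Windows of this size cannot show the deleted genes, so the genotype labels were not checked here.

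Values are log2 of LEM-2 over the matched input (same genotype, same number), each in CPM (counts scaled to a common library size) plus 1, so that 0 means equal shares of both libraries. They are relative to the library: less signal on the arms raises the share of the centres, and no absolute gain or loss was measured. With 2 libraries against 2, an exact two-sided permutation test over libraries cannot give a p below 0.333, so a difference in a single summary value cannot pass a threshold of 0.05 and is given with the values of every library.

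In wild-type embryos all 5 centres lay below input, and in both mutants they lay closer to it. Averaged over the 200 windows, the wild-type libraries stood at -0.46 and -0.39, those of the double mutant at -0.14 and -0.18, and those of cec-4 at -0.12 and -0.15. The mutant and wild-type libraries did not overlap, with a difference of 0.27 for the double mutant and 0.29 for cec-4 (exact p = 0.333 for each, the smallest possible). The difference was 0.17 for each mutant under TMM factors, which are estimated from the bulk of the windows.

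The order of the 5 centres was the same in every genotype. The centre of III was lowest at -0.61 ± 0.05 in wild-type (SD, n = 2), -0.33 ± 0.05 in the double mutant and -0.33 ± 0.06 in cec-4. Next came II with -0.56 ± 0.05, -0.26 ± 0.05 and -0.25 ± 0.06 for the same genotypes, and I with -0.51 ± 0.05, -0.25 ± 0.05 and -0.19 ± 0.03. The centres of IV (-0.31 ± 0.04, -0.07 ± 0.02 and -0.05 ± 0.01) and V (-0.28 ± 0.05, -0.02 ± 0.00 and 0.01 ± 0.00) were highest. In wild-type the neighbours in this order (III and II, II and I, IV and V) differed by about 1 SD or less, while the step from I to IV was larger than the spread of the libraries. In the double mutant II and I again lay within their spread. This spread is between libraries, and within every LEM-2 library the order was the same. In wild-type replicate 1 III, II and I stood at -0.65, -0.60 and -0.55, and in replicate 2 at -0.58, -0.52 and -0.48. In both mutants the centres of IV and V stood near the input level and those of II and III below it.

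**Figure D1:**
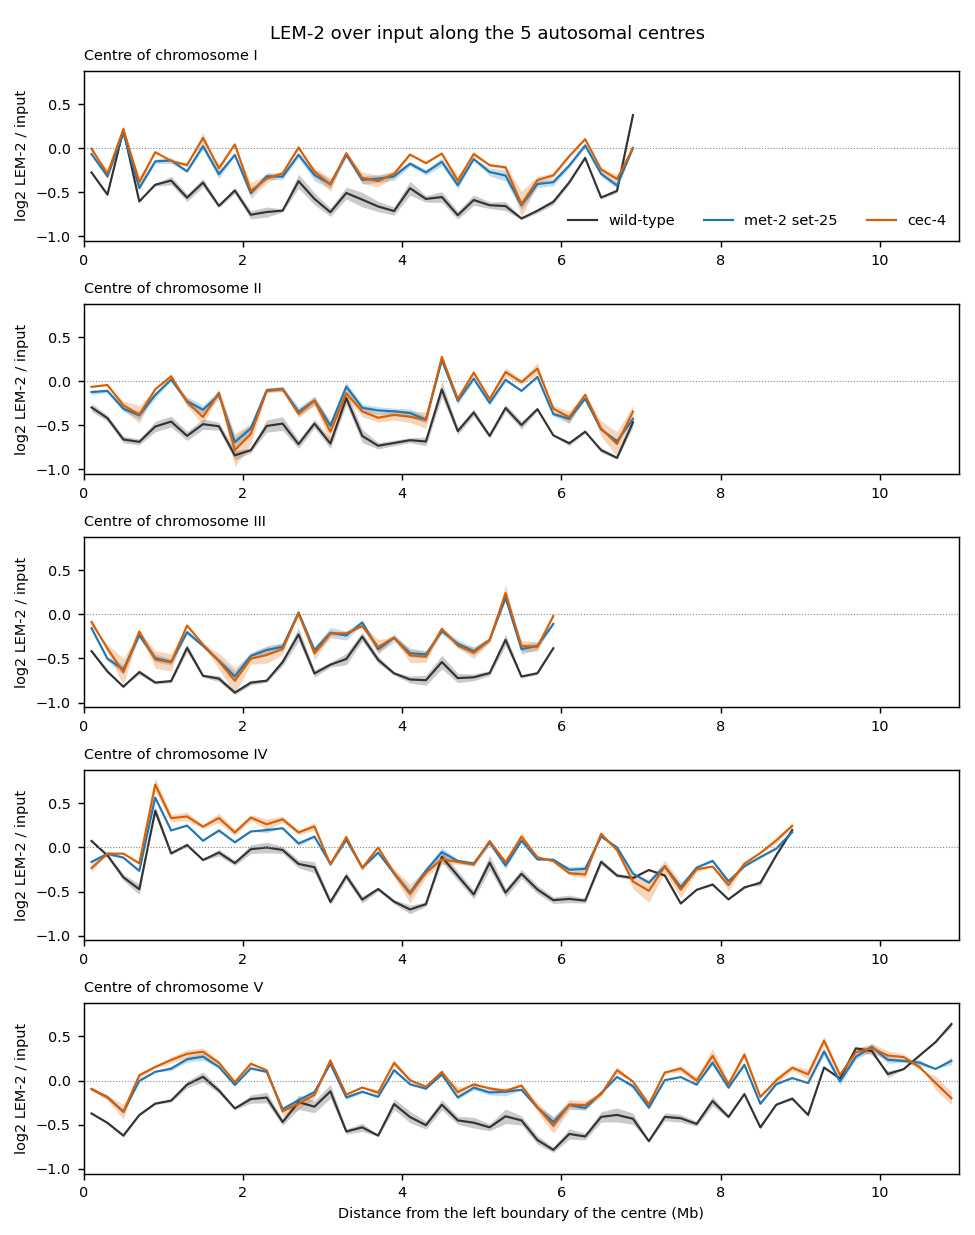
LEM-2 over input (log2, vertical axis) of each 200 kb window along the centres of chromosomes I to V, against the distance from the left boundary of the centre in Mb, with the mean of 2 libraries as a line and the range between both libraries as shading. The wild-type line runs below the mutant lines almost throughout, the mutant lines follow each other, and the order turns at the left end of IV and the right ends of I and V.

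Most centre windows were depleted of LEM-2 in wild-type, and more of them were enriched in the mutants. By edgeR's quasi-likelihood test on the counts (Benjamini-Hochberg adjusted p under 0.05 over all 504 windows), 177 of the 200 windows were lower than input in wild-type and 11 were higher. Of all windows, 92.9% differed from input in wild-type, 52.4% lower and 40.5% higher. The count of enriched wild-type windows depended on the scaling, with 17 under TMM factors, 20 under DESeq2 size factors and 21 in DESeq2's Wald test. In the double mutant 129 centre windows were lower and 33 higher (39.7% and 37.5% of the table, 77.2% in all), and in cec-4 119 were lower and 46 higher (42.7% and 38.9% of the table, 81.5% in all). Of the 177 windows depleted in wild-type, 114 were depleted in all 3 genotypes, 13 were enriched in both mutants and a further 15 were enriched in cec-4 and not called in the double mutant. Of the 33 windows enriched in the double mutant, 31 were also enriched in cec-4, which is 93.9% of the former and 67.4% of the 46 enriched in cec-4. No window depleted in the double mutant was enriched in cec-4.

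The 11 enriched wild-type windows lay mostly at the margins of the centres, in 7 runs of adjacent windows. A run of 4 covered V 16.2 to 17 Mb, a run of 2 covered V 15.6 to 16.0 Mb, and single windows lay at V 15.2 to 15.4 Mb, IV 4.8 to 5.0 Mb, IV 12.8 to 13 Mb, I 4.4 to 4.6 Mb and I 10.8 to 11 Mb. The centres of II and III held none. In the double mutant the 33 enriched windows formed 18 runs, the longest of 7 windows at V 15.6 to 17 Mb, and in cec-4 the 46 formed 25 runs, the longest of 11 windows at IV 4.8 to 7.0 Mb. On V 7 windows were enriched in wild-type, 19 in the double mutant and 22 in cec-4, and on IV 2, 11 and 16. On III 1 window was enriched in either mutant, III 9.2 to 9.4 Mb.

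Single windows stood out as narrow peaks on this depleted ground. The window at IV 4.8 to 5.0 Mb had the highest level of its centre, at 0.36 and 0.47 in the wild-type libraries, 0.56 and 0.57 in the double mutant, and 0.64 and 0.79 in cec-4. Its left neighbour, IV 4.6 to 4.8 Mb, was the largest local valley of IV, at -0.42 and -0.53 in wild-type, -0.27 and -0.26 in the double mutant, and -0.17 and -0.20 in cec-4. The step between these adjacent windows was thus present in all 6 LEM-2 libraries. The level of the peak was higher in cec-4 than in wild-type by 0.30 ± 0.08 (log2 change and SE, edgeR adjusted p = 0.00235), while the 0.15 ± 0.08 of the double mutant did not pass the test (adjusted p = 0.0869). The mutants did not pass the test against each other there (-0.15 ± 0.08, double mutant minus cec-4, adjusted p = 0.3).

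The largest local peak of I was the window at 4.4 to 4.6 Mb. It stood at 0.18 and 0.24 in wild-type, 0.19 and 0.16 in the double mutant, and 0.16 and 0.27 in cec-4, and the genotypes overlapped. Neither mutant passed the test against wild-type there (change of -0.04 ± 0.06, adjusted p = 0.582, in the double mutant and 0.01 ± 0.06, adjusted p = 0.882, in cec-4). Of the 35 windows of the centre of I, this one included, 31 rose in the double mutant and 32 in cec-4. Among all 504 windows 49.4% and 50.6% rose. With counts scaled to the summed counts of the centre windows, this window fell in both mutants. The change was then -0.29 ± 0.06 in the double mutant (edgeR adjusted p = 0.00181) and -0.28 ± 0.06 in cec-4 (adjusted p = 0.00243).

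On II the largest local peak was the window at 9.4 to 9.6 Mb. The wild-type libraries stood at -0.18 and -0.00, those of the double mutant at 0.26 and 0.22, and those of cec-4 at 0.23 and 0.32. Both mutants lay above both wild-type libraries, and the window crossed from near input to enriched. On III the highest wild-type window was 6.6 to 6.8 Mb, at -0.30 and -0.15 in wild-type, 0.04 and 0.01 in the double mutant, and -0.03 and 0.05 in cec-4. Its right neighbour at 6.8 to 7.0 Mb was the largest local valley of III, at -0.71 and -0.63 in wild-type, -0.36 and -0.45 in the double mutant, and -0.37 and -0.52 in cec-4. On V the largest local peak was 9.0 to 9.2 Mb, at -0.20 and -0.04 in wild-type, 0.19 in each library of the double mutant, and 0.21 and 0.25 in cec-4.

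The midpoint of the lowest window lay 0.3 Mb from the nearest boundary on II, 1.5 Mb on I, 1.9 Mb on III, 4.1 Mb on IV and 5.1 Mb on V. The window at III 5.8 to 6.0 Mb was the lowest of its centre, at -0.91 and -0.86 in wild-type, -0.64 and -0.76 in the double mutant, and -0.61 and -0.90 in cec-4. The window at II 11.6 to 11.8 Mb stood at -0.85 and -0.88, -0.65 and -0.70, and -0.57 and -0.85 in the same order. At II 6.8 to 7.0 Mb, the largest local valley of II, the libraries read -0.90 and -0.79 in wild-type, -0.63 and -0.75 in the double mutant, and -0.59 and -0.97 in cec-4. In these 3 windows cec-4 replicate 2 lay at, near or under the wild-type values while cec-4 replicate 1 lay above them, so the level of cec-4 there depended on the replicate. The lowest windows of I (9.4 to 9.6 Mb, -0.81 and -0.78 in wild-type), IV (8.0 to 8.2 Mb, -0.75 and -0.65) and V (11.8 to 12 Mb, -0.82 and -0.76) were also below input in all 4 mutant libraries, between -0.41 and -0.78. On I and IV cec-4 replicate 2 again lay at or near wild-type and replicate 1 above it (cec-4 at -0.49 and -0.78 on I, and at -0.42 and -0.63 on IV).

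Local peaks and valleys were then taken as a class. A peak was a window highest of 5 in a row in wild-type replicate 1 and at least 0.1 above the mean of its 4 neighbours, and a valley was its mirror image. This gave 30 peaks and 37 valleys, whose size in replicate 1 was fixed by the choice (0.26 and 0.20 on average). In wild-type replicate 2, which had no part in the choice, all 30 peaks and all 37 valleys kept their direction, with a mean height of 0.30 and a mean depth of 0.23.

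Nearly all of these windows kept their direction against their neighbours in the mutants. Of the 30 peaks, 29 lay above their neighbours in both double-mutant libraries and 28 in both cec-4 libraries. Of the 37 valleys, 36 lay under their neighbours in both libraries of either mutant. Mean peak height was 0.24 and 0.27 in the double-mutant libraries, and 0.22 and 0.31 in those of cec-4, against 0.30 in wild-type replicate 2. Mean valley depth was 0.20 and 0.22 in the double mutant, and 0.18 and 0.27 in cec-4, against 0.23. The cec-4 libraries fell on both sides of the wild-type value, and those of the double mutant lay slightly below it (exact p between 0.333 and 1 for the 4 comparisons, none of which can go below 0.333). With windows chosen in wild-type replicate 2 the direction turned, the mutants lying above replicate 1 by 0.01 (the double mutant) and 0.02 (cec-4) in peak height and by 0.01 and 0.03 in valley depth. With contrasts of at least 0.2 the double mutant lay below wild-type replicate 2 by more, at -0.08 ± 0.01 in height and -0.04 ± 0.01 in depth (exact p = 0.333, the smallest possible). Here ± is the SD of the 2 double-mutant libraries only, because wild-type entered with 1 library and its spread is not included. The direction thus depended on which wild-type library and contrast chose the windows, and the exact test cannot settle it. Input enters these ratios, and over the 200 windows LEM-2 over input ran against log2 input. Pearson r was -0.594 in wild-type, -0.615 in the double mutant and -0.567 in cec-4. The part of the input in the shared peaks and valleys was not tested.

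**Figure D2:**
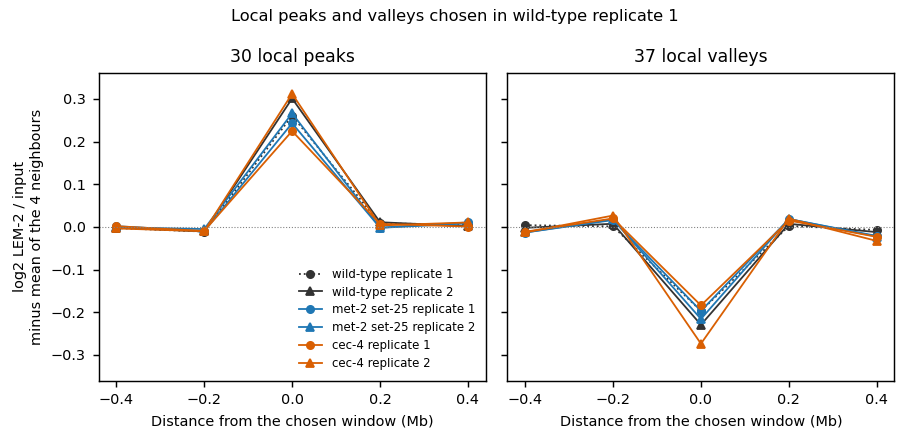
Mean log2 LEM-2 over input, minus the mean of the 4 neighbours (vertical axis), at the 30 local peaks (left) and 37 local valleys (right), against the distance from the chosen window in Mb, with 1 line per library. Wild-type replicate 1 (dotted) chose the windows; the other 5 libraries show central values of 0.22 to 0.31 at the peaks and -0.18 to -0.27 at the valleys, and values near 0 at the neighbours.

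The few windows that lost their shape can be named. The wild-type peak at IV 11 to 11.2 Mb, 0.17 and 0.13 above its neighbours, lay under them in both mutants, with contrasts of -0.17 and -0.15 in the double mutant and of -0.14 and -0.29 in cec-4. The level of this window was -0.25 and -0.26 in wild-type, -0.39 and -0.40 in the double mutant, and -0.36 and -0.62 in cec-4. It fell in cec-4 (change of -0.23 ± 0.08, edgeR adjusted p = 0.0104) and did not pass the test in the double mutant (-0.14 ± 0.08, adjusted p = 0.0916), and the difference between the mutants did not pass it either (0.09 ± 0.08, adjusted p = 0.582). The peak at I 5.0 to 5.2 Mb (contrast of 0.10 and 0.15 in wild-type) was level with its neighbours in cec-4 (-0.02 and -0.02) and above them in the double mutant (0.08 and 0.06). The valleys at IV 9.8 to 10.0 Mb (-0.10 and -0.11 in wild-type) and V 16.0 to 16.2 Mb (-0.15 and -0.26) had contrasts between -0.04 and 0.02 in all 4 mutant libraries.

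LEM-2 changed with distance from the arm boundary, and less so in the mutants. In wild-type it dropped from 0.16 ± 0.03 (SD, n = 2) in the last Mb of the arms to -0.34 ± 0.01 in the first Mb of the centres. It went on to -0.42 ± 0.04 at 1 to 2 Mb, -0.45 ± 0.06 at 2 to 3 Mb and -0.51 ± 0.07 at 3 to 4 Mb. The 20 windows at 4 to 6 Mb, which only IV and V hold, stood at -0.49 ± 0.08. In the double mutant the arm margin stood at 0.03 ± 0.02 and the same 5 distances at -0.16, -0.16, -0.16, -0.15 and -0.17 (SD of 0.02 to 0.04). In cec-4 the arm margin stood at 0.03 ± 0.02 and the 5 distances at -0.14, -0.12, -0.14, -0.13 and -0.16 (SD of 0.02 to 0.04). These means pool different chromosomes, since 5 centres enter up to 3 Mb, 4 at 3 to 4 Mb (without III, the lowest) and IV and V, the highest, at 4 to 6 Mb. Pooled over the 5 centres with each centre's own mean taken out, the mutant slopes with distance were negative in all 4 libraries (-0.03 to -0.05 per Mb). This did not hold for every centre, since the double mutant had slopes of 0.025 and 0.009 on II and of 0.009 and -0.0004 on III.

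**Figure D3:**
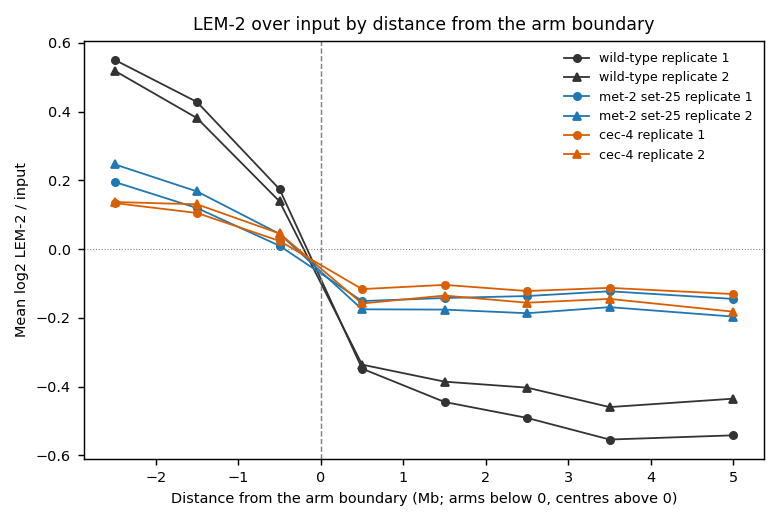
Mean log2 LEM-2 over input (vertical axis) against distance from the nearest arm boundary in Mb, with arms below 0 and centres above 0, and 1 line per library. The wild-type libraries step down by about 0.50 across the boundary and reach -0.55 and -0.46 at 3 to 4 Mb, while the bin means of the 4 mutant libraries lie between -0.20 and -0.10. The bins hold 5, 5, 5, 4 and 2 centres. Pooled over the centres with each centre's own mean taken out, the mutant slope was -0.04 per Mb in the mean of either mutant.

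The step at the boundary, from the last Mb of the arms to the first Mb of the centres, was 0.52 and 0.47 in the wild-type libraries, 0.16 and 0.22 in the double mutant, and 0.14 and 0.20 in cec-4. The first Mb of the centres minus their interior (2 Mb or more from a boundary, each compared within its own centre) was 0.20 and 0.12 in wild-type, 0.01 and 0.05 in the double mutant, and 0.04 and 0.05 in cec-4. All mutant libraries lay below both wild-type libraries in both measures (exact p = 0.333 for each, the smallest possible). The input gave 0.02 to 0.03 for the second measure in wild-type and the double mutant and 0.02 and 0.00 in cec-4, and its part in the difference was not tested.

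The edges were far from alike. On V the right edge stood above the interior by 0.78 and 0.69 in wild-type, 0.26 and 0.33 in the double mutant, and 0.15 and 0.14 in cec-4, whereas the left edge of V did not stand apart (0.03 and -0.04 in wild-type). Both edges of I stood out in wild-type, the left by 0.35 and 0.24 and the right by 0.45 and 0.32, and did so less in the double mutant (0.10 and 0.14 left, 0.09 and 0.12 right) and cec-4 (0.11 and 0.16 left, 0.11 and 0.13 right). The left edge of IV went from 0.35 and 0.24 in wild-type to 0.04 and 0.10 in the double mutant and 0.08 and 0.11 in cec-4. The edges of II and III did not follow this. The right edge of III stood at 0.02 and -0.01 in wild-type, 0.08 and 0.10 in the double mutant, and 0.11 and 0.17 in cec-4, so both mutants lay above wild-type. The left edge of III was below the interior in all genotypes, at -0.09 and -0.14, -0.13 and -0.11, and -0.06 and -0.08 in the same order. The right edge of II stood at -0.06 and -0.19 in wild-type, -0.24 and -0.20 in the double mutant, and -0.14 and -0.20 in cec-4. Its left edge was at 0.05 and 0.03 in wild-type, 0.01 and 0.03 in the double mutant, and higher in cec-4 at 0.08 and 0.10. Without V the difference from wild-type was -0.11 for the double mutant and -0.07 for cec-4, against -0.13 and -0.12 with it.

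The slope was steep on I, IV and V in wild-type and near 0 on II and III. Per Mb from the nearest boundary, within each centre, LEM-2 changed by -0.10 and -0.08 in the wild-type libraries, by -0.03 and -0.05 in the double mutant, and by -0.04 and -0.05 in cec-4. The wild-type slopes were -0.15 and -0.10 on I, -0.10 and -0.07 on IV and -0.13 and -0.11 on V, against -0.02 and 0.02 on II and 0.01 and 0.03 on III. The right sides of the centres had a wild-type slope of -0.14 and -0.11 and the left sides one of -0.07 and -0.05. In cec-4 the slopes were -0.04 and -0.04 on the right and -0.04 and -0.05 on the left. Over windows at least 1 Mb inside, the slope was -0.11 and -0.09 in wild-type, -0.05 and -0.07 in the double mutant, and -0.06 and -0.09 in cec-4, and there the cec-4 libraries overlapped wild-type.

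Relative to the library total, most centre windows rose in both mutants. In the double mutant 171 of 200 windows rose and 4 fell against wild-type, where 79.2% of all windows of the table changed, 49.4% rising and 29.8% falling. In cec-4 168 rose and 6 fell, where 78.2% of the table changed, 50.6% rising and 27.6% falling. Both comparisons use the same wild-type libraries. The median centre window changed by 0.29 in the double mutant and by 0.32 in cec-4, against 0.15 and 0.16 for the median of all 504 windows, so the median centre window also lay higher relative to the typical window. Under TMM factors 142 rose and 9 fell in the double mutant, against 189 and 183 among all 504 windows. In cec-4 there were 139 rises and 10 falls, against 184 and 183. With DESeq2 size factors 119 rose and 11 fell in the double mutant (153 and 195 among all windows), and 138 and 11 did so in cec-4 (182 and 184). The median centre window then changed by 0.16 in the double mutant and by 0.19 in cec-4.

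The mean change was larger inside the centres than at their edges. It was 0.18 for the double mutant and 0.20 for cec-4 in the first Mb, 0.26 and 0.30 at 1 to 2 Mb, 0.29 and 0.31 at 2 to 3 Mb, 0.36 and 0.38 at 3 to 4 Mb, and 0.32 and 0.33 at 4 to 6 Mb. Among the 150 windows at least 1 Mb inside, 136 rose in the double mutant and 129 in cec-4, and 1 of the falls, in cec-4, lay there. Windows that stood high in wild-type changed less. With windows ranked by wild-type replicate 1 about their centre mean and the change taken against wild-type replicate 2, 4 groups of 50 windows, from lowest to highest, changed by 0.28, 0.28, 0.25 and 0.12 in the double mutant and by 0.29, 0.30, 0.29 and 0.17 in cec-4.

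The windows that fell lay at the ends of 3 centres, apart from 1. The windows at I 10.8 to 11 Mb, IV 4.0 to 4.2 Mb, and the last pair of V (16.6 to 16.8 Mb and 16.8 to 17 Mb) fell in both mutants. In cec-4 V 16.4 to 16.6 Mb (0.28 and 0.29 in wild-type, 0.12 and 0.18 in cec-4) and the peak at IV 11 to 11.2 Mb passed the test too, and neither differed between the mutants by the test (adjusted p = 0.604 and 0.582). The call of V 16.4 to 16.6 Mb was lost without input wild-type replicate 2 or input cec-4 replicate 1 (adjusted p = 0.0755 and 0.0877), and that of IV 11 to 11.2 Mb without input wild-type replicate 1, input cec-4 replicate 2 or LEM-2 wild-type replicate 2 (adjusted p = 0.0545 to 0.0583). The window at I 10.8 to 11 Mb was the highest of the centre of I in wild-type, at 0.40 and 0.35, and stood at 0.02 and -0.01 in the double mutant and 0.02 and -0.02 in cec-4. Its change was -0.37 ± 0.06 in either mutant (edgeR adjusted p = 4.78e-05 in the double mutant and 2.78e-05 in cec-4). The window at IV 4.0 to 4.2 Mb stood at 0.09 and 0.06 in wild-type, -0.18 and -0.15 in the double mutant, and -0.18 and -0.28 in cec-4. At V 16.6 to 16.8 Mb the libraries read 0.43 and 0.44 in wild-type, 0.13 and 0.13 in the double mutant, and 0.05 and -0.11 in cec-4.

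To ask which windows moved more or less than the centres as a whole, counts were also scaled to the summed counts of the 200 centre windows. With this scaling 48 windows rose and 24 fell in the double mutant (9.92% and 48.2% of the table, 58.1% in all), and 48 rose and 26 fell in cec-4 (10.1% and 48.2% of the table, 58.3% in all). The split depended on the centring. With TMM factors over the centre windows 25 rose and 32 fell in the double mutant (25 and 264 among all 504 windows), and 34 and 35 did so in cec-4 (35 and 273). In DESeq2's Wald test 19 rose and 40 fell in the double mutant (19 and 289 among all windows), and 37 and 40 did so in cec-4 (38 and 289). Without LEM-2 cec-4 replicate 1 the count for cec-4 was 112 in place of 74, and without either wild-type input, either input of the double mutant or its LEM-2 replicate 1 the count for the double mutant lay between 42 and 46 in place of 72. Of the windows in the first Mb 5 rose and 14 fell in the double mutant, and 6 rose and 10 fell in cec-4, whereas of the 30 windows at 3 to 4 Mb 16 rose in either mutant and 1 fell in cec-4.

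The largest rises on this scale are given with their levels in both mutants, which share the wild-type libraries. The window at III 9.2 to 9.4 Mb stood at -0.35 and -0.22 in wild-type, 0.21 and 0.17 in the double mutant, and 0.15 and 0.34 in cec-4. Relative to the other centre windows it rose by 0.22 ± 0.07 in the double mutant (edgeR adjusted p = 0.0254) and by 0.24 ± 0.07 in cec-4 (adjusted p = 0.0141). The first of these calls was lost without any 1 of the 4 inputs of these genotypes, LEM-2 wild-type replicate 1 or LEM-2 double-mutant replicate 1 (adjusted p up to 0.0851), as well as under TMM factors over the centre windows (0.19, adjusted p = 0.0608) and in DESeq2's Wald test (0.16, adjusted p = 0.0751), and the other without input cec-4 replicate 2 (adjusted p = 0.0571). The window at V 13.4 to 13.6 Mb stood at -0.47 and -0.38 in wild-type, 0.04 and 0.03 in the double mutant, and 0.10 and 0.17 in cec-4, a relative rise of 0.21 ± 0.05 and 0.28 ± 0.05 (adjusted p = 0.00267 and 0.000357). The window at II 6.0 to 6.2 Mb, at -0.52 and -0.39 in wild-type, read 0.03 and 0.01 in the double mutant and 0.02 and 0.09 in cec-4. The window at I 5.8 to 6.0 Mb, at -0.51 and -0.45 in wild-type, read -0.07 and -0.08 in the double mutant and 0.03 and 0.06 in cec-4. All mutant libraries lay above both wild-type libraries in these 4 windows. For the mutant that ranked a window this was a condition of the choice, so it carries no weight. Relative to the library total, 190 of the 200 centre windows had a change above 0 in either mutant.

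Runs of at least 5 enriched windows in a mutant made 3 longer stretches, chosen after their values were seen and therefore without a test. The 11 windows of IV 4.8 to 7.0 Mb averaged -0.08 and 0.00 in wild-type, 0.19 and 0.19 in the double mutant, and 0.27 and 0.36 in cec-4. In them 1 window was enriched in wild-type, 8 in the double mutant and all 11 in cec-4. This stretch was already the high part of its centre in wild-type, 0.33 and 0.37 above the rest of the centre of IV, and was so by 0.34 and 0.37 in the double mutant and by 0.41 and 0.55 in cec-4. The 5 windows of V 6.8 to 7.8 Mb averaged -0.15 and -0.09 in wild-type, 0.16 and 0.20 in the double mutant, and 0.21 and 0.28 in cec-4, and all 5 were enriched in either mutant while none was in wild-type. The mean of the 7 windows of V 15.6 to 17 Mb went the other way, at 0.32 and 0.33 in wild-type, 0.21 and 0.27 in the double mutant, and 0.16 and 0.17 in cec-4. Most of these windows did not fall against wild-type on the library total. In the double mutant 2 fell and 1 rose, and in cec-4 3 fell and 2 rose. Scaled to the centres, 6 fell in the double mutant and 5 in cec-4.

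The mutants resembled each other within the centres more than either resembled wild-type. Over the 200 windows, each about its own centre mean, the mean levels of the double mutant and cec-4, which share no library, had a Pearson r of 0.967 and a Spearman rho of 0.959. Single libraries of the 2 mutants gave r between 0.955 and 0.964 (4 pairs), not far under the 0.975 to 0.988 between the replicates of 1 genotype (3 pairs). Wild-type libraries had r of 0.764 to 0.846 with the double mutant and of 0.676 to 0.778 with cec-4. Over the 150 windows at least 1 Mb inside, r was 0.981 between the mutants, 0.856 between wild-type and the double mutant and 0.817 between wild-type and cec-4. These are descriptions over neighbouring windows, which are not independent, and no p is given. Input enters every ratio, and its part in these r values was not tested.

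**Figure D4:**
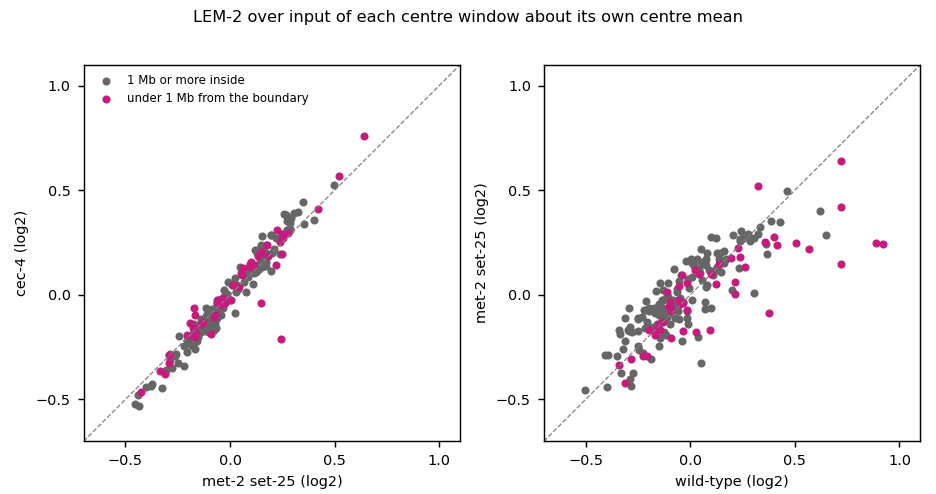
Log2 LEM-2 over input of the 200 centre windows, each minus the mean of its own centre (mean of 2 libraries), for cec-4 against the double mutant (left) and the double mutant against wild-type (right), with windows under 1 Mb from the boundary in a second colour and the line of equality dashed. The points lie close to the line between the mutants (r = 0.967) and scatter more widely against wild-type (r = 0.818), where the edge windows that were highest in wild-type lie under the line.

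A direct test between the mutants found 1 window, V 16.8 to 17 Mb, at the very end of the centre of V. It read 0.61 and 0.67 in wild-type, where it was the highest of all centre windows, 0.18 and 0.27 in the double mutant, and -0.13 and -0.27 in cec-4. No 2 genotypes overlapped there, and the window was enriched in the double mutant and depleted in cec-4. It was higher in the double mutant than in cec-4 by 0.42 ± 0.08 (edgeR adjusted p = 0.00627), while 8.13% of all windows differed between the mutants, 7.54% being higher in the double mutant and 0.595% lower. The same window was the only one called with counts scaled to the centres, where 7.54% of the table was called. Without LEM-2 double-mutant replicate 2 the difference was 0.37 and no longer passed the test (adjusted p = 0.0732).

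Over the 200 windows the difference between the mutants was mostly small. It ranged from -0.16 to 0.42 with a median of -0.03, its median SE was 0.06, and in 178 of 200 windows its size was under 0.1. The wild-type comparisons, with a median SE of 0.06 as well, gave a size under 0.1 in 14 windows for the double mutant and 12 for cec-4. At an unadjusted p under 0.05, 13 windows differed between the mutants. DESeq2's Wald test called 11, with 2 higher in the double mutant and 9 lower, against 49 and 15 among all 504 windows. The call count also depended on which libraries entered, among them LEM-2 cec-4 replicate 1 and LEM-2 double-mutant replicate 2. The median difference was -0.01 without either of these, and the cause of the dependence was not tested. A difference of 0.1 is under 2 of these SEs, so smaller differences were not detectable here. Larger ones went uncalled too, such as 0.16 ± 0.06 at V 16.6 to 16.8 Mb (edgeR adjusted p = 0.127) and the lowest, -0.16. A window that was not called may therefore still differ by that much.

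The spread of windows about their centre mean depended on where it was measured. The SD over the 200 windows was 0.25 in each wild-type library, 0.19 and 0.21 in the double mutant, and 0.19 and 0.27 in cec-4, so the double mutant lay below wild-type and cec-4 on both sides of it. Over windows at least 1 Mb inside it was 0.21 in each wild-type library, 0.18 and 0.20 in the double mutant, and 0.18 and 0.27 in cec-4. On V the SD was 0.31 and 0.30 in wild-type, 0.18 and 0.22 in the double mutant, and 0.18 and 0.25 in cec-4, and on I 0.26 and 0.24, 0.17 and 0.18, and 0.15 and 0.23. On II it was 0.17 and 0.19 in wild-type and higher in both double-mutant libraries (0.20 and 0.22), and on III the libraries of all genotypes overlapped. The SD of log2 input within centres was 0.12 to 0.13 in all 6 input libraries.

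**Figure D5:**
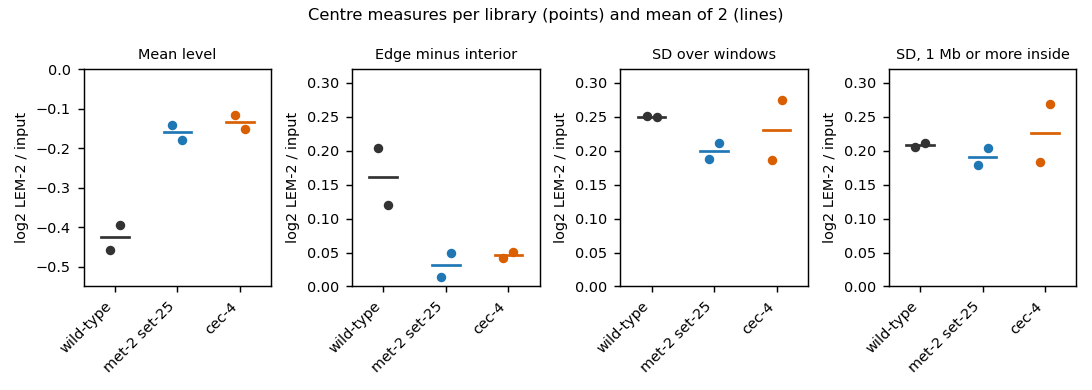
Mean level, edge minus interior, SD over all centre windows and SD over windows at least 1 Mb inside (log2 LEM-2 over input, vertical axes), with 1 point per library and a line at the mean of 2. The mutant libraries are separate from wild-type in the first 2 panels, and cec-4 lies on both sides of wild-type in the others, with replicate 2 at 0.27 in each.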

How the data were processed

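Early embryos of 3 genotypes gave 6 LEM-2 and 6 input libraries, sequenced as read pairs after 15 PCR cycles. The authors deposited raw counts per 200 kb window, and log2 values of the same windows, which equal log2 of the scaled count plus 1 (largest difference 5.15e-14) and were not used further. Bowtie is named in the submitters' processing notes. How read pairs were filtered and counted is not stated there. Counting error assumes that each count is 1 fragment.

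Raw counts were fitted with edgeR 4.0.16 in R 4.3.3 (glmQLFit, glmQLFTest), all 12 libraries in 1 fit with a mean per group, scaled to the library total. A change is the LEM-2 minus input contrast of 1 genotype minus that of another. Benjamini-Hochberg adjustment ran over 504 windows at 0.05, and a filter of 100 mean counts removed 0 windows. SE is the log2 change divided by the square root of F. Ratios used CPM plus a pseudocount of 1. Python 3.11.15, NumPy 2.4.6, SciPy 1.17.1, pandas 2.3.3 and matplotlib 3.10.9 gave the rest, and the fits were tested on simulated data. Alternatives were TMM, DESeq2 1.42.0, other inputs, boundaries and contrasts, leaving out each library, and the replicate block. The edgeR p-values and SEs rest on a spread per window that input and LEM-2 libraries of all groups share. They are not specific to the groups compared, although replicates differed most in LEM-2 of cec-4 (chi-square per degree of freedom 54.2) and least in the inputs (1.9 to 3.96).

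Named windows were the highest and lowest of each centre in wild-type, the largest local peak and valley, the 3 largest relative rises and falls per mutant, all windows enriched in wild-type or fallen in a mutant, and those called between the mutants. Centres, lists and tests were chosen with earlier results of these data known. The labels say that strains were grown in parallel in replicas. Over the centre windows, the difference of replicate 2 from replicate 1 had a correlation over 0.1 in 6 of 15 pairs of groups and under -0.1 in 4 (-0.413 to 0.566), so the reported tests have no replicate block. Columns with no sample numbered 0. Genes and sequences of the windows were not analysed here.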

Additional observations from a re-analysis of the deposited data

Results flagged for a closer look

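The window at V 16.8 to 17 Mb differed between the mutants, the double mutant met-2 set-25 lying above cec-4 by 0.42 on the log2 scale (SE 0.08, edgeR adjusted p = 0.00627). Both libraries of the former lay above 0 and both of cec-4 below it. It is the last window before the right arm of V.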

How the results depend on the processing

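Of 280 values of comparisons and counts under alternative settings, 246 kept their direction and side of the threshold or stayed within the replicate spread, as did 945 of 991 for single windows and genotypes. The cause of each change was not tested. Replicate block: it left 188, 159 and 164 windows differing from input (wild-type, then the double mutant, then cec-4), and 178, 175 and 1 called for the double mutant, for cec-4 and between them (69, 77 and 1 when scaled to the centres), and changed no count by over 1.5 times. Crossed wild-type numbers, added after seeing the data, gave 180, 178 and 1. The difference of the mean from wild-type was 0.1714 for the double mutant and 0.1686 for cec-4 under TMM. The SD of cec-4 minus wild-type turned from -0.0197 to 0.0179 at least 1 Mb inside, 0.0312 as median absolute deviation and -0.0635 to 0.024 with a library left out (0.024 without cec-4 replicate 1), and that of the double mutant from -0.0507 to -0.0174 and 0.0034 in the first 2 settings. The slope difference of cec-4 was 0.0179 at least 1 Mb inside, and its edge difference -0.1911 with edges under 0.6 Mb. Peak height differed by 0.0066 (the double mutant) and 0.016 (cec-4), and valley depth by 0.0051 and 0.0282, with windows chosen in wild-type replicate 2. With contrasts of at least 0.2 they were -0.0782 and -0.0412 for the double mutant. For cec-4 valley depth differed by 0.008 with the mean of 6 inputs, and with a library left out peak height differed by -0.0764 to 0.011 and valley depth by -0.0453 to 0.0445, the highest being without cec-4 replicate 1. Between the mutants 2 windows were called under TMM, 11 in DESeq2's Wald test, 0 at least 1 Mb inside and 0 to 34 with a library left out. Scaled to the centres these were 5 in the Wald test and 0 to 47. Scaled to the centres, 42 to 93 windows were called in the double mutant and 50 to 112 in cec-4 with a library left out. In wild-type II 9.4 to 9.6 Mb stood at 0.008 under TMM and 0.0497 under DESeq2 factors or its Wald test, and V 9.0 to 9.2 Mb at 0.0184 and 0.0185 in the latter. At the depth of these libraries counting error is under 1% of a window.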
